A study of Mus musculus with 47 samples.

Results

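This report follows 10 enzyme genes of serine synthesis, folate one-carbon metabolism and proline synthesis in mouse B78-D14 melanoma: Phgdh, Psat1, Psph, Shmt1, Shmt2, Mthfd1, Mthfd1l, Mthfd2, Aldh1l2 and Pycr1. They were chosen by name, and all 10 were found among the 56748 genes of the deposited count matrix. B78-D14 is an amelanotic, Cdkn2a-/- derivative of the B16 line, in which a mitochondrial base editor was used to place truncating mutations in Mt-Nd5, a gene of respiratory complex I. The edited populations are bulk populations carrying a share of mutant mitochondrial DNA (heteroplasmy), named m.11,944 and m.12,436 after the mutated position. Bulk RNA sequencing was available here for 4 cultures of m.11,944 60% cells, 4 cultures of control cells, 7 tumors of m.12,436 60% cells, 7 tumors of m.12,436 40% cells and 4 control tumors. Tumors grew under the skin of male C57BL/6 mice, whose age the sources give as about 8 weeks in one place and as 10 to 16 weeks in another, and a piece of each tumor was sequenced, so that host cells contributed to its RNA. Nothing in the sources says that the cultures of a group were separately derived, and p-values then measure only the spread between these samples.

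Serine is made from a glycolytic intermediate in successive reactions by Phgdh, Psat1 and Psph, and the first of these needs NAD+. Shmt enzymes then pass a carbon of serine to folate, in the cytosol through Shmt1 and in mitochondria through Shmt2, and Mthfd enzymes interconvert the folate-bound units. Several of these genes, and Pycr1 in proline synthesis, are known targets of the transcription factor Atf4, which cells use when amino acids are short or mitochondria are disturbed.

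Total counts per sample lay between 16475735 and 36173502, and the lowest count of a member in any sample was 116, for Pycr1. Levels are given as CPM, counts per 1000000 reads after TMM normalization, separately for cultures and tumors. Leukocyte markers, 25 genes, summed to at most 6.52 CPM in a culture and to at least 2161 CPM in a tumor. Of 7 pigment cell markers, Tyr had 0 counts in every culture and at most 1 in a tumor. Mitf had 194 to 630 counts in cultures and 307 to 727 in tumors, and Pmel 4 to 11 and 6 to 267. The other markers were at 0 in some samples. Control tumor 3 held 798 counts of the pigment gene Dct, which was at 0 in all m.12,436 tumors. Without that tumor, 0 members passed in either comparison of m.12,436 with control tumors, as with it, and all 10 still passed between control tumors and control cultures. Fewer cells of a type and less RNA per cell cannot be told apart in such samples. Whether counting used strand is not given in the sources used here. Reads from genes overlapping a member, such as Cct6a with Psph, Ndufa4l2 with Shmt2, Smcr8 with Shmt1 and Nopchap1 with Aldh1l2, are therefore an uncertainty, as are those of the pseudogene Phgdh-ps1.

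RefSeq promoter windows, from 250 bases before to 50 after a start site, held 9 of the 10 members, and Aldh1l2 was not among them. They were searched on both strands for TGATGNAA, a form of the element bound by Atf4 with C/EBP factors, for TGACNNNGC, a form of the antioxidant response element, and for the E-box CACGTG. The first was found in Pycr1 alone among the members and in 3.97% of all 32851 windows of the table. The second was found in Phgdh and Psph and in 12.4% of all windows, and the third in 0 of the 9 members against 7.15% of windows. These matches are descriptions of letters, not of binding. The 2 stretches with a match before the start site are shown because pairs with Pycr1 had the lowest Pearson's r across all 18 tumors and Phgdh opens the pathway. The capitals mark the match, whose first base lies 103 bases before the Pycr1 start and 53 before the Phgdh start. The windows are from RefSeq's GRCm38.p6 table, and each stretch matched GRCm39 once, at chr11:120534650-120534697 and chr3:98247310-98247358, both on the minus strand. Neither overlaps an exon of its gene in GENCODE, and each lies within an intron of 1 longer transcript.
Pycr1: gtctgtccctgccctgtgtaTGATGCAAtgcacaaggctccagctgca
Phgdh: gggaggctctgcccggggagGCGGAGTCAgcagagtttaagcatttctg

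Per kilobase of exon, Phgdh was the most abundant member in every group. In control cultures it averaged 252 CPM per kb, with Shmt2 at 162 and Psat1 at 135, whose ranges overlapped each other. In control tumors Phgdh averaged 65.6 CPM per kb and Shmt2 49.4, while Mthfd1 at 23.5 and Psat1 at 21.9 overlapped. The least abundant in control tumors were Pycr1 at 1.44, Psph at 1.32 and Aldh1l2 at 1.30 CPM per kb, with overlapping ranges. The mitochondrial Shmt2 exceeded the cytosolic Shmt1 in every sample, by 14.3 to 23.3 times per kb in control cultures and by 9.59 to 11.8 times in control tumors.

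The comparison of m.11,944 60% with control cultures asks whether partial loss of complex I moved these genes in the cells themselves. None of the 10 members passed an adjusted p of 0.1 in edgeR's test, nor an unadjusted p of 0.05. Of 12930 genes tested, 0.0309% fell past the adjusted threshold and 4.11% had an unadjusted p under 0.05. The point estimates were negative for 9 members and positive for Pycr1, with a median of −0.06 on the log2 scale against −0.0041 for all genes. Most members differed more between culture numbers than between genotypes.

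Among the serine synthesis genes, Phgdh, the entry enzyme, was at 766, 727, 645 and 714 CPM in control cultures 1 to 4 and at 795, 838, 482 and 659 CPM in the edited ones (log2 fold change −0.04, SE 0.18). Psat1, the aminotransferase, was at 757, 730, 723 and 971 CPM in control cultures and at 768, 800, 412 and 811 CPM in edited ones (−0.19, SE 0.23). Psph, the phosphatase that ends the pathway, was at 104, 102, 35.5 and 59.0 CPM against 103, 117, 21.2 and 51.7 CPM (−0.04, SE 0.54). All 3 genes overlapped between the groups, and all were lowest in edited culture 3.

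Of the serine hydroxymethyltransferases, Shmt2 was at 873, 794, 459 and 538 CPM in control cultures and 828, 753, 300.4 and 474 CPM in edited ones (log2 fold change −0.18, SE 0.34). It was the lower of each same-numbered pair in the edited cells. Shmt1 was at 59.0, 57.6, 50.5 and 43.7 CPM against 62.9, 60.6, 39.7 and 40.4 CPM (−0.05, SE 0.19). The groups overlapped for both.

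Aldh1l2, a mitochondrial enzyme that oxidises formyl-folate, had the widest range, 26.1 times from its lowest to its highest culture. It was at 371, 377, 23.3 and 47.1 CPM in control cultures 1 to 4, and at 325, 328, 14.4 and 38.6 CPM in edited cultures 1 to 4. Cultures 1 and 2 were thus high and cultures 3 and 4 low in both groups, and the edited culture was below the control of its number in 4 of 4 pairs. Without the number in the model, the log2 fold change was −0.21 (SE 1.14, adjusted p = 1.00). With the number as a block it was −0.33 (SE 0.086, adjusted p = 0.0787), past the threshold, the single member of which this was true, while 4.09% of all genes fell and 3.02% rose past it. Without both cultures of one number in turn, an alternative added after seeing the data, the blocked value lay at −0.37 without number 1, −0.37 without number 2, −0.23 without number 3 and −0.34 without number 4. The adjusted p was then 0.232, 0.206, 0.102 and 0.0907, past the threshold only without number 4. The unadjusted p from these blocked edgeR fits was 0.00446, 0.00427, 0.00492 and 0.0136, thus highest without number 4. In that fit 8.01% of all genes fell and 8.21% rose past the threshold. Cultures 1 and 2 also deviated alike across genes, as did 3 and 4, whatever their number. With those 2 sets as the block, likewise added after seeing the data, Aldh1l2 stood at −0.29 (adjusted p = 0.654 in edgeR's test) and 0 members passed.

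Mthfd2, the mitochondrial NAD-dependent dehydrogenase, was at 315, 301, 174 and 239 CPM in control cultures and 328, 310.5, 123 and 218 CPM in edited ones (log2 fold change −0.07, SE 0.32). Mthfd1l, which releases formate in mitochondria, was at 313, 296, 295 and 285 CPM against 327, 303, 220 and 248 CPM (−0.12, SE 0.14). Mthfd1, the cytosolic trifunctional enzyme, ran the other way between cultures, at 147, 142, 277 and 226 CPM against 155, 148, 240.4 and 222 CPM (−0.05, SE 0.26). It was the 1 member whose values in cultures 1 and 2 lay wholly below those in cultures 3 and 4. For 8 members they lay wholly above, and for Psat1 they overlapped. The share of all genes that split in this way was not counted. Across all genes too, cultures 1 and 2 deviated opposite to cultures 3 and 4.

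Pycr1, which makes proline, was at 43.1, 41.3, 7.76 and 14.2 CPM in control cultures and 63.1, 61.6, 6.52 and 12.2 CPM in edited ones (log2 fold change 0.43, SE 0.81). The edited culture was the higher by 1.47 and 1.49 times in numbers 1 and 2, and stood at 0.84 and 0.858 of the control in numbers 3 and 4. With the block its log2 fold change was 0.21 (SE 0.15, adjusted p = 0.452 in edgeR's test).

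**Figure D1:**
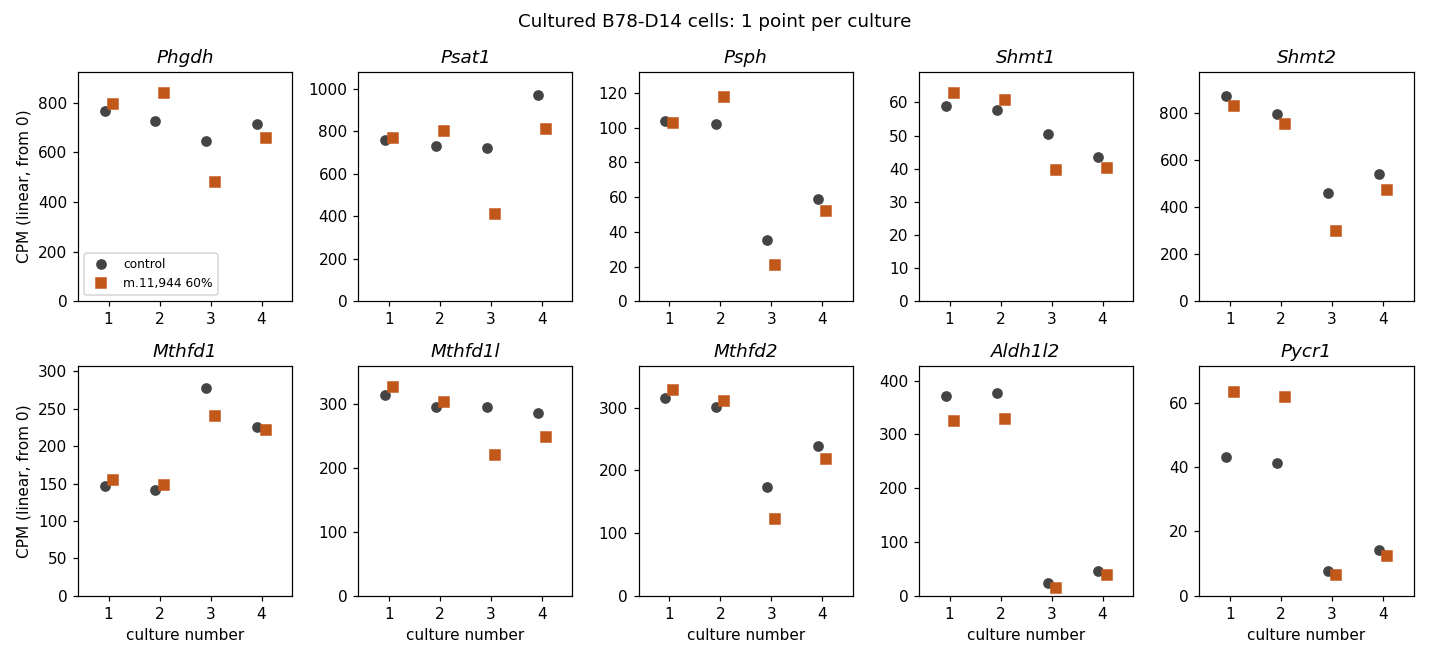
CPM of each member (vertical axes, linear from 0) by culture number, with circles for control and squares for m.11,944 60% cells. Aldh1l2 falls from 325 to 377 CPM in cultures 1 and 2 to 14.4 to 47.1 in cultures 3 and 4 of both genotypes, while Mthfd1 is higher in cultures 3 and 4.

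The cell cycle markers moved with the culture number too, with a mean log2 CPM of 7.08 to 7.29 in cultures 1 and 2 and 8.04 to 8.23 in cultures 3 and 4. Their part in the values of the members was not tested. In the wider pathway, 0 of 18 other folate genes, 0 of 3 glycine cleavage genes, 0 of 7 genes of serine use, 0 of 10 transporters, 0 of 6 proline genes and 0 of 24 further Atf4-related genes passed without the block. With it, 1 folate gene rose and 1 fell, 1 transporter fell and 7 of the 24 Atf4-related genes fell, beside the 4.09% of all genes given above. These calls changed with the cultures left out. Without both cultures numbered 1, or without both numbered 2, 0 genes of these lists passed, while 0.534% and 0.612% of all genes fell. Without number 3, 9 Atf4-related genes fell against 3.16% of all genes, and without number 4, 8 fell and 1 rose against 8.01% and 8.21%. Ahcy, which hydrolyses S-adenosylhomocysteine, was at 464 to 616 CPM in control cultures and 352 to 484 CPM in edited ones (log2 fold change with the block −0.33, SE 0.064, adjusted p = 0.0348). Slc38a2, a transporter of small neutral amino acids, was at 575 to 626 CPM in control cultures and 461 to 522 CPM in edited ones, with no overlap (−0.31, SE 0.060, adjusted p = 0.0325 in the blocked edgeR fit). Slc46a1, the proton-coupled folate transporter, was at 1.96 to 4.31 CPM and 3.12 to 5.60 CPM (0.51, SE 0.15, adjusted p = 0.0935). Of the Atf4-related genes, the smallest p belonged to Gdf15, at 0 to 1.47 CPM in edited and 0.0569 to 5.05 CPM in control cultures, followed by Aars1 (−0.33, SE 0.065) and Eif4ebp1 (−0.29, SE 0.060). Without number 1 and without number 2, the blocked estimates were −0.30 and −0.35 for Ahcy and −0.33 and −0.29 for Slc38a2. They were 0.47 and 0.47 for Slc46a1, −0.35 and −0.34 for Aars1 and −0.27 and −0.31 for Eif4ebp1. Gdf15 was not tested in either of these fits.

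In tumors, m.12,436 60% was compared with control to ask whether heteroplasmy moved these genes where the cells grow with host tissue. None of the 10 members passed the adjusted threshold in edgeR's test over 16213 genes, of which 1.34% fell and 0.962% rose past it. Psat1 and Mthfd1l had an unadjusted p under 0.05, as did 16.3% of all genes. The estimates were negative for 9 members, with a median of −0.25 on the log2 scale against −0.0025 for all genes tested. In 2 members, Psat1 and Mthfd1, no 60% tumor overlapped a control tumor, against 4.07% of all genes.

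Psat1 had the largest difference. It was at 137, 121, 135 and 122 CPM in control tumors and at 77.3 at the lowest, 94.6 at the median and 108 CPM at the highest of 60% tumors. Every 60% tumor was below every control tumor, and the log2 fold change was −0.47 (SE 0.16, unadjusted p = 0.0108, adjusted p = 0.169 from edgeR). Phgdh was at 182, 192, 211 and 156 CPM in control tumors and at 114, 148 and 177 CPM at the lowest, median and highest of 60% tumors, which overlapped (−0.32, SE 0.18). Psph was at 10.2, 9.73, 10.4 and 8.31 CPM against 6.82, 8.02 and 8.95 CPM (−0.26, SE 0.18).

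Shmt2 was at 209, 187, 223 and 193 CPM in control tumors and at 147, 179 and 190.1 CPM at the lowest, median and highest of 60% tumors (log2 fold change −0.24, SE 0.13). Shmt1 was at 34.4, 28.5, 35.6 and 25.8 CPM against 19.3, 27.4 and 30.3 CPM (−0.22, SE 0.15). Both overlapped between the groups. Leaving out 1 tumor in turn, the estimate of Shmt1 lay between −0.28 and −0.14.

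Mthfd1 was at 115, 108, 132 and 107 CPM in control tumors and at 90.5, 98.8 and 104 CPM at the lowest, median and highest of 60% tumors. The groups did not overlap, and the log2 fold change was −0.23 (SE 0.12, adjusted p = 0.347 from edgeR). Mthfd1l was at 129, 112, 166 and 132 CPM against 100.3, 105 and 124 CPM (−0.32, SE 0.15, unadjusted p = 0.0466 and adjusted p = 0.299 from edgeR). Without control tumor 3, the tumor with Dct, Mthfd1l stood at −0.19 (unadjusted p = 0.230 and adjusted p = 0.749 from edgeR). Mthfd2 differed little, at 72.4, 50.5, 69.3 and 59.5 CPM against 46.7, 62.5 and 70.3 CPM (−0.06, SE 0.18). Aldh1l2 was at 9.75, 7.26, 11.2 and 10.8 CPM against 5.78, 7.83 and 11.4 CPM (−0.31, SE 0.33), and Pycr1 at 7.46, 5.26, 8.82 and 7.05 CPM against 5.00, 7.12 and 9.41 CPM (0.01, SE 0.16). The last 4 genes overlapped between the groups.

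The number of members called differed between fits. With only the 2 groups compared, Psat1 (adjusted p = 0.0192), Mthfd1 (0.055), Mthfd1l (0.0879) and Shmt2 (0.0963) passed in edgeR's test, at log2 fold changes of −0.46, −0.23, −0.31 and −0.23, where 3.63% of all genes fell past the threshold. By DESeq2, Psat1 passed (−0.46, adjusted p = 0.0887) beside 3.35% of genes that fell, and by limma-voom 0 members did. Beside these values, all 16 cell cycle markers had negative estimates in 60% against control tumors (median −0.25, 0 past the threshold), and 19 of 24 leukocyte markers tested had positive ones (median 0.30, 2 past it). Cell cycle markers summed to 1705 to 2176 CPM in 60% and 2177 to 2588 CPM in control tumors, and leukocyte markers to 2457 to 3919 and 2476 to 3017 CPM. With the leukocyte score as a covariate Psat1 stood at −0.50 and Phgdh at −0.31. With the cell cycle score as a covariate, an alternative added after seeing the data, Psat1 stood at −0.16 and Mthfd1l at −0.05, and the other 8 estimates were positive, between 0.01 and 0.21, with 0 past the threshold. That score ran from 6.53 to 6.86 in 60% and from 6.87 to 7.15 in control tumors, with no overlap. This fit therefore cannot tell the group difference from the score.

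**Figure D2:**
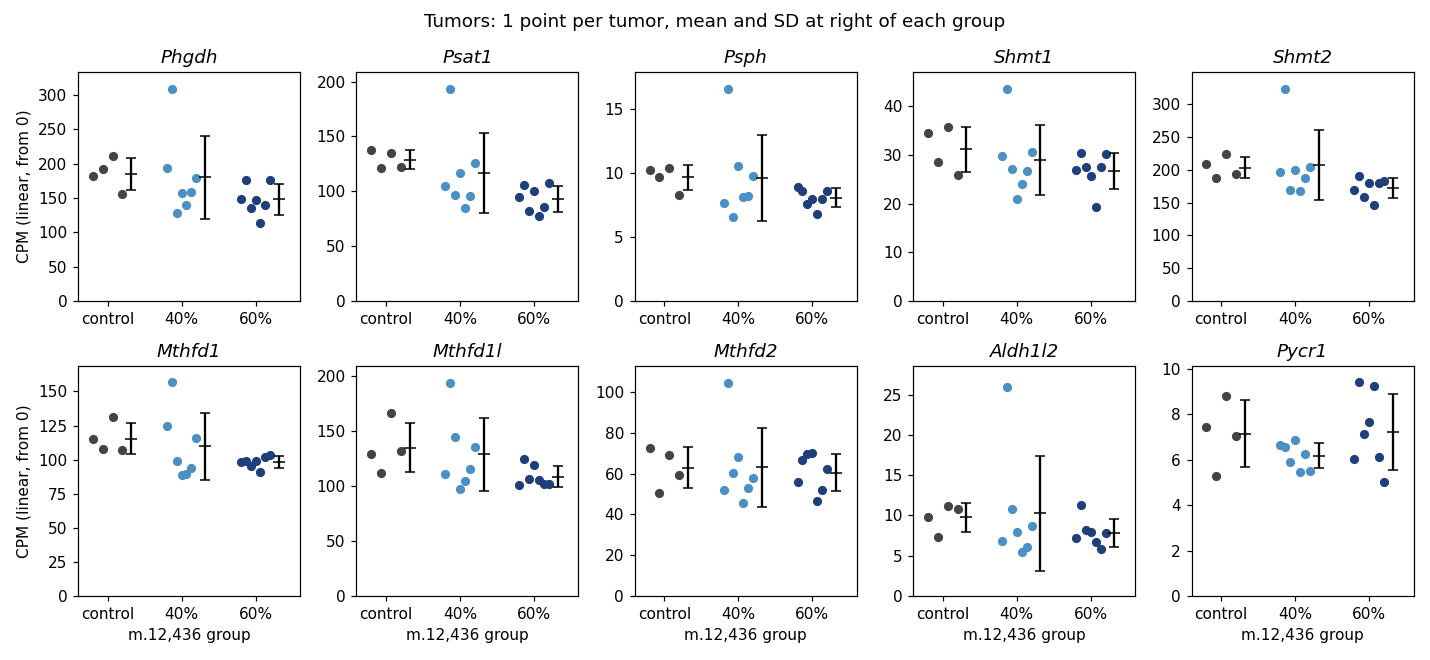
CPM of each member (vertical axes, linear from 0) in control, m.12,436 40% and m.12,436 60% tumors, 1 point per tumor, with the mean and SD at the right of each group (n = 4, 7 and 7). One 40% tumor is the highest of all 18 in every member but Pycr1, and the 60% tumors lie wholly below the controls in Psat1 and Mthfd1.

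For m.12,436 40% against control tumors, 0 members and 0% of all genes fell past the threshold, 0 genes rose past it, and 5.09% of genes, with no member among them, had an unadjusted p under 0.05. Log2 fold changes of members lay between −0.21 (Pycr1, SE 0.16) and 0.07 (Aldh1l2, SE 0.34). In every member but Pycr1, the SD between tumors was larger in the 40% group than in the other two. Its tumor 2 was the highest of all 18 tumors in 9 members, with 308 CPM of Phgdh, 193 of Psat1, 16.5 of Psph, 323 of Shmt2, 43.5 of Shmt1, 157 of Mthfd1, 194 of Mthfd1l, 104 of Mthfd2 and 26.0 of Aldh1l2. The other 40% tumors reached at most 193 CPM of Phgdh and 204 CPM of Shmt2. Pycr1 in the same tumor was at 6.55 CPM, inside the group's range of 5.47 to 6.87 CPM. That tumor's cell cycle score, a mean log2 CPM, was 7.20, the highest of the 18 tumors, and its leukocyte score of 4.67 was within its group's range of 4.50 to 5.12. Their part in that tumor's values was not tested. A fit of this comparison with the cell cycle score as a covariate is given in the last section. Without that tumor all 10 estimates against control tumors were negative, from −0.12 (Shmt2) to −0.35 (Aldh1l2), with Psat1 at −0.31 (unadjusted p = 0.00837 and adjusted p = 0.585 from edgeR) and Phgdh at −0.22. Shmt2, Mthfd2 and Aldh1l2 had changed sign, and 0 members passed the adjusted threshold.

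Between the mutant groups, m.12,436 60% against 40%, 0 members passed the adjusted threshold in edgeR's test, where 0.993% of genes fell and 0.814% rose past it. Psat1 (log2 fold change −0.32, SE 0.14, unadjusted p = 0.0353 from edgeR, adjusted p = 0.310) and Shmt2 (−0.26, SE 0.12, unadjusted p = 0.0355 from edgeR, adjusted p = 0.311) were the members under an unadjusted 0.05, as were 14.1% of genes. Pycr1 had the 1 positive estimate (0.23, SE 0.14). This comparison shares its 60% tumors with the one above. Leaving out 40% tumor 2 moved Aldh1l2 from −0.38 to 0.04 and Psat1 from −0.32 to −0.16. Shmt2 moved from −0.26 to −0.12, and neither Psat1 (unadjusted p = 0.0994, adjusted p = 0.527 in edgeR's test) nor Shmt2 (unadjusted p = 0.0898, adjusted p = 0.510 in edgeR's test) then stayed under an unadjusted 0.05. Of 20 other folate genes, 1 fell, Ahcy, at 157 to 181 CPM in 60% and 163 to 227 CPM in 40% tumors (−0.24, SE 0.062, adjusted p = 0.0744). No gene of the lists of glycine cleavage, serine use, transporters, proline or Atf4-related genes passed in any of the 3 tumor comparisons, and Ahcy was the single folate gene that did. Leukocyte markers were again mostly higher, with 21 of 24 positive and 3 past the threshold.

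**Figure D3:**
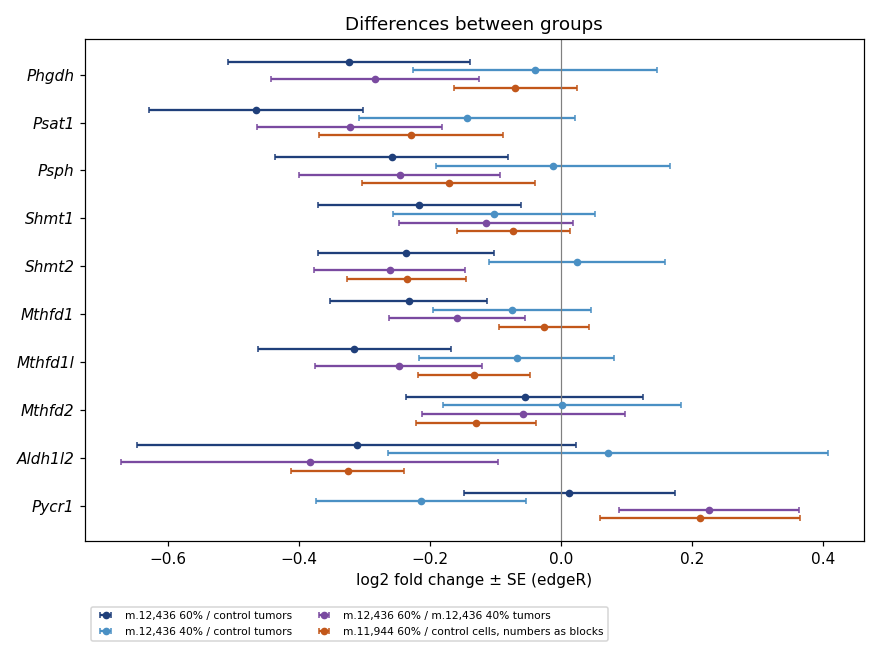
Log2 fold changes with SE from edgeR (horizontal axis) for each member in the 3 tumor comparisons and, with culture numbers as blocks, in cells. Estimates of 60% against control tumors are negative in 9 of 10 members, down to −0.47 in Psat1, and those of 40% against control tumors lie between −0.21 and 0.07, or between −0.35 and −0.12 without 40% tumor 2, a fit that is not drawn.

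Control tumors were then set beside control cultures. All 10 members were lower in tumors past the threshold of edgeR's test over 15047 genes, of which 29.9% were lower and 35.3% higher. No tumor overlapped a culture in any member, as was true of 56.9% of all genes. The median log2 fold change of members was −2.19 against 0.04 for all genes. Host cells, growth in the animal and the separate handling of pellets and tumor pieces cannot be told apart here. All 23 leukocyte, 6 endothelial and 7 fibroblast markers tested were higher in tumors, and 15 of 16 cell cycle markers were lower, with a median of −1.11.

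On the joint scale of that fit, Psat1 went from 790.1 to 1043 CPM in cultures to 110.4 to 125 CPM in tumors (log2 fold change −2.89, SE 0.13, 7.41-fold lower, adjusted p = 4.42e-07). Phgdh went from 705 to 842 CPM to 141 to 189 CPM (−2.21, SE 0.13, 4.63-fold lower). Psph fell from 38.9 to 114 CPM to 7.52 to 9.33 CPM (−3.22, SE 0.33). The cytosolic folate enzymes Shmt1 (−1.03, SE 0.15) and Mthfd1 (−1.05, SE 0.22) had smaller estimates, and the difference between the falls was not tested.

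Among mitochondrial enzymes, Shmt2 fell by 1.98 on the log2 scale (SE 0.21), Mthfd2 by 2.30 (SE 0.21) and Mthfd1l by 1.41 (SE 0.13). With all cultures in the fit Aldh1l2 had the largest fall, from 25.5 to 410 CPM in cultures to 6.62 to 10.03 CPM in tumors (−4.66, SE 0.88, adjusted p = 0.00154). Pycr1 went from 8.49 to 47.3 CPM to 4.79 to 7.88 CPM (−2.16, SE 0.51). The size of these last falls depended on which cultures were used. In alternatives added after seeing the data, Aldh1l2 stood at −2.14 without control cultures 1 and 2, behind Psat1 (−3.004), Psph (−2.57) and Phgdh (−2.17), and at −5.56 without cultures 3 and 4. Pycr1 stood at −0.91 and −2.85, and Mthfd1 at −1.42 and −0.62. All 10 members passed the threshold in both.

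**Figure D4:**
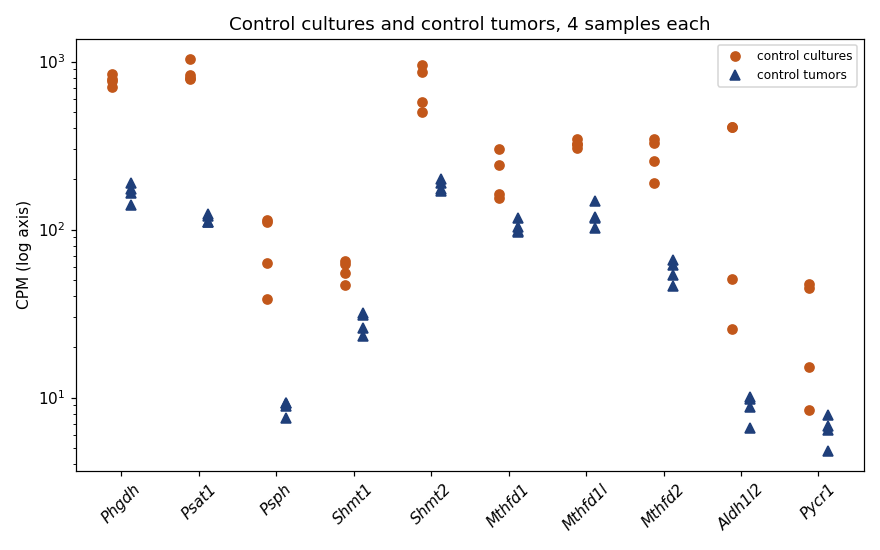
CPM (vertical log axis) of each member in the 4 control cultures (circles) and 4 control tumors (triangles), on the scale of their joint fit. No triangle reaches a circle of the same gene, and the lowest culture over the highest tumor is widest for Psat1, at 6.34 times, and narrowest for Pycr1, at 1.076 times.

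Other genes of the pathway did not all fall. Of 20 further folate genes, 11 were lower and 7 higher in tumors. Ahcy was lower (log2 fold change −1.71, SE 0.13). Ggh, a lysosomal hydrolase of folate polyglutamates, was at 3.88 to 5.03 CPM in tumors and at most 0.0402 CPM in cultures, and Folr2, a folate receptor known from macrophages, was at 11.2 to 22.9 CPM in tumors with no read in the cultures. Of the glycine cleavage genes, Gldc and Amt were higher, and Dld (−1.07, SE 0.13) and Gcsh lower, the last named after its values were seen. Of 7 genes of serine use, 3 were lower and 1 higher. Cth, which makes cysteine from cystathionine, went from 9.51 to 99.8 CPM in cultures to 0.546 to 0.857 CPM in tumors, with Cbs (−2.97, SE 0.40) and Gcat (−1.10, SE 0.28) also lower. Of 10 transporters, 6 were lower and 1 higher, and the serine carriers Slc1a4 (−2.03, SE 0.21) and Sfxn1 (−0.81, SE 0.13) and Slc38a2 (−0.97, SE 0.11) were among the lower. In proline metabolism 4 of 6 were lower, Prodh (−1.23, SE 0.15) and Aldh18a1 (−1.63, SE 0.28) among them. Of 23 Atf4-related genes, 19 were lower and 0 higher, including Slc7a5 (−2.16, SE 0.15), Gars1 (−1.67, SE 0.14) and Cars1 (−1.22, SE 0.12).

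Pairs of members were compared across the 18 tumors on log2 CPM after the mean of each group was removed, which gives 45 pairs. In 44 of them Pearson's r was positive, and in 37 the permutation test within groups passed an adjusted p of 0.1, with a median r of 0.69. Pairs of other genes were not tested in this way, so no share over all genes stands beside these counts. The highest were Psat1 with Shmt2 (r = 0.946, Spearman rho 0.876, both permutation p = 1e-05, the smallest they can give, and adjusted p = 0.0003 and 0.00045), Phgdh with Shmt2 (r = 0.925, permutation p = 2e-05, adjusted p = 0.0003, and rho 0.80, permutation p = 0.00018, adjusted p = 0.00142) and Psph with Shmt2 (r = 0.895, permutation p = 0.00028, adjusted p = 0.00157, and rho 0.73, permutation p = 0.00111, adjusted p = 0.00431). The lowest were Shmt1 with Pycr1 (r = −0.0591, permutation p = 0.805, adjusted p = 0.842, and rho 0.0774, permutation p = 0.771, adjusted p = 0.827) and Psph with Pycr1 (r = 0.0178, permutation p = 0.92, adjusted p = 0.92, and rho 0.0609, permutation p = 0.802, adjusted p = 0.84). Of the 36 pairs without Pycr1, 35 passed, and the pairs with it reached an r of at most 0.362. Mthfd1l with Pycr1 (r = 0.362, adjusted p = 0.079 from the permutation test) and Aldh1l2 with Pycr1 (r = 0.313, adjusted p = 0.0973) also passed.

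Much of this rested on few tumors. Without the 2 tumors farthest from the median of the first gene, 14 pairs passed and the median r was 0.42. Psat1 with Shmt2 then had an r of 0.838, Phgdh with Shmt2 one of 0.805 and Psph with Shmt2 one of 0.661. With the leukocyte score removed, the median r was 0.72. Without 40% tumor 2 alone, it was 0.44. Mthfd1l with Pycr1 then had an r of 0.405 and Aldh1l2 with Pycr1 one of 0.387, and the other pairs with Pycr1 lay between −0.145 and 0.294. Among pairs without Pycr1, Psph with Mthfd1l then had an r of −0.0664 and Phgdh with Mthfd1l one of 0.187. The tumors share normalization and differ in the share of host cells, and a relation between 2 genes of the malignant cells cannot be told apart from one with that share.

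Of 12317 genes whose mean log2 CPM was 1 or more, those most like Phgdh across the 18 tumors, by Pearson's r with group means removed, were H2az1 (0.964), Dbf4 (0.959), Mcm10 (0.955), Rfc5 (0.951) and Uhrf1 (0.945). Without 40% tumor 2 these lay between 0.912 and 0.963. Those most like Mthfd2 were Psmd7 (0.941), Zfp706 (0.919), Gars1 (0.914), Brix1 (0.914) and Fsaf1 (0.911), and between 0.833 and 0.893 without that tumor.

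**Figure D5:**
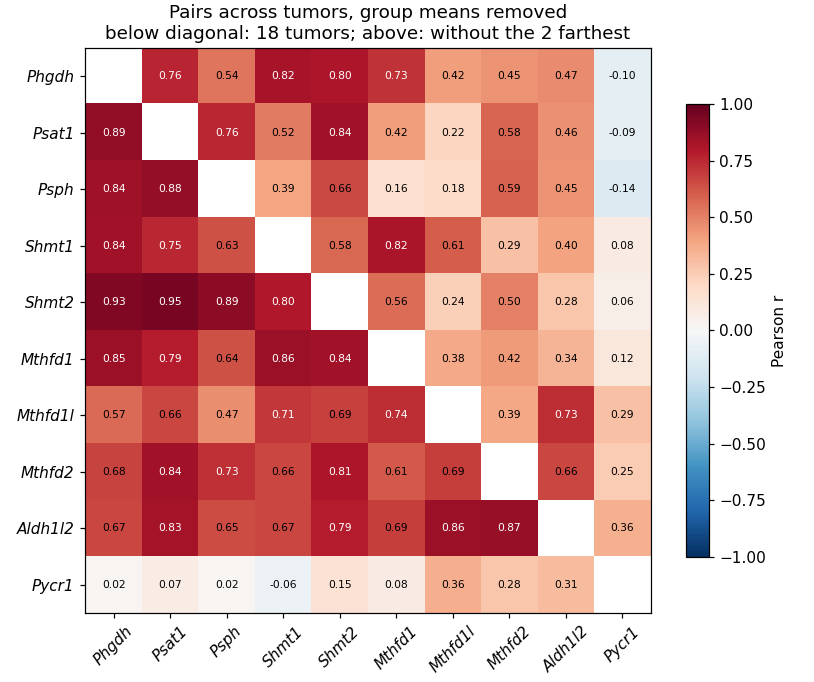
Pearson's r (color, from −1 to 1) for each pair of members across tumors with group means removed, for all 18 tumors below the diagonal and without the 2 tumors farthest from the median of the first gene above it. Psat1 with Shmt2 is the highest at 0.946, and the Pycr1 row stays at or below 0.362.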

How the data were processed

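The authors ran STAR against GRCm39 and featureCounts on its genes, and the deposited values are raw counts. Of 47 columns, 26 were matched to samples through their names, the labels and wording of the study's source data, and 21 were not used, so that m.11,944 tumors and m.12,436 cells were not analysed here. Counts were fitted in R 4.3.3 with edgeR 4.0.16 (TMM, filterByExpr, robust quasi-likelihood test, Benjamini–Hochberg over all genes, adjusted p under 0.1), separately for cultures, tumors and both controls. All p-values are two-sided. Same-numbered cultures deviated together from their group means (r of at least 0.718 across genes, mean 0.796), so the labels' numbers were taken as pairs. Unlike numbers within 1 and 2 or within 3 and 4 gave an r of 0.594 to 0.810, so the values also form 2 sets, and such a block was tried. Log2 CPM used a prior count of 2. Pairs of members were tested with 100000 permutations within groups, adjusted over 45 pairs. All members are named. From each pathway list the text names up to 3 genes of smallest p past the threshold. The genes most like Phgdh and Mthfd2 are the 5 of highest r. Alternatives were limma-voom 3.58.1, DESeq2 1.42.0, its size factors, other filters, covariates, blocks, fewer groups and left-out samples. In a simulation that planted a log2 change of 1 in 200 genes, edgeR's test found 26% of them in cells and 79.5% in 60% against control tumors. Members and lists were chosen with earlier results of these data known.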

Additional observations from a re-analysis of the deposited data

Results flagged for a closer look

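In 4 of the 50 sets formed by a member and a group, 1 sample lay far from the rest of its group by Dixon's criterion on log2 CPM, which chance meets in about 1 of 20. Psat1 was at 971 CPM in control culture 4, where the nearest control culture had 757, and at 412 CPM in m.11,944 60% culture 3, where the nearest had 768. Shmt1 was at 19.3 CPM in m.12,436 60% tumor 5, below the next at 25.6. Shmt2 was at 323 CPM in m.12,436 40% tumor 2, above the next at 204.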

How the results depend on the processing

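Small groups, tumor pieces of mixed cells and cultures that split by number limited these comparisons. All 10 members were lower in control tumors than in control cultures, past the threshold, under every alternative run. In 40% against control and in 60% against 40% tumors, 0 members passed under any alternative. The sign changes given below are of members not past the threshold, and the cause was not tested.

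Genes called in cells numbered 5, and 84 by DESeq2, 0 with at least 10 counts in every culture, 919 with the number as a block (1 member, Aldh1l2), and 89, 110, 602 and 2092 with the block but without both cultures numbered 1, 2, 3 or 4 (1 member without 4). With cultures 1 and 2 against 3 and 4 as the replicate block, 494 genes and 0 members were called. The block changed the call of no other member. With the number as a block and without both cultures numbered 3, Phgdh turned to 0.042, Shmt1 to 0.012 and Mthfd1 to 0.029.

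Against control tumors, 60% tumors had 374 called genes, and 1056 by DESeq2 (1 member, Psat1), 943 with only the 2 groups (4 members), 178 with the replicate number as a block, although tumors of 1 number come from different mice, 87 with the leukocyte score and 62 with the cell cycle score. 40% tumors had 0, and 5 by DESeq2. For 60% against 40% tumors, 293 became 744 by DESeq2, 178 without a filter, 36 with the leukocyte score and 194 with the cell cycle score.

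By limma-voom, Pycr1 turned to −0.012 in 60% against control tumors, and in 40% against control tumors Shmt2 turned to −0.00462, Mthfd2 to −0.038 and Aldh1l2 to −0.13. With the replicate block in tumors, Mthfd2 turned to 0.075 (60% against control) and Psph to 0.0055 (40% against control). With the cell cycle score, 60% against control tumors gave Phgdh 0.068, Psph 0.013, Shmt1 0.11, Shmt2 0.032, Mthfd1 0.046, Mthfd2 0.20 and Aldh1l2 0.21, 40% against control gave Phgdh 0.10, Psph 0.090, Shmt1 0.028, Mthfd1 0.032 and Mthfd1l 0.042, and 60% against 40% gave Shmt1 0.082, Mthfd1 0.014 and Mthfd2 0.096. Without the 2 farthest tumors, 14 of 45 pairs passed against 37, with r = −0.138 for Psph with Pycr1 and 0.0782 for Shmt1 with Pycr1.

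Leaving out 1 culture gave 0 genes throughout, and log2 fold changes of −0.14 to 0.095 for Phgdh, −0.36 to 0.27 for Psph, −0.17 to 0.047 for Shmt1, −0.39 to 0.035 for Shmt2, −0.18 to 0.16 for Mthfd1, −0.24 to 0.15 for Mthfd2, −0.70 to 0.25 for Aldh1l2, −0.27 to −0.0080 for Psat1, −0.21 to −0.028 for Mthfd1l and 0.012 to 0.77 for Pycr1. Leaving out 1 tumor gave 66 (without control tumor 3) to 724 (without control tumor 4) genes for 60% against control, where Mthfd2 ran from −0.14 to 0.018 and Pycr1 from −0.10 to 0.14. For control tumors 1 and 2 the counts were 125 and 716. For 40% against control it gave 0 to 4 genes, with Phgdh from −0.22 to 0.040, Psph from −0.19 to 0.076, Shmt2 from −0.12 to 0.081, Mthfd1 from −0.18 to 0.00132, Mthfd1l from −0.19 to 0.056, Mthfd2 from −0.16 to 0.076, Aldh1l2 from −0.35 to 0.18, Psat1 from −0.31 to −0.078 and Shmt1 from −0.23 to −0.023. For 60% against 40% it gave 108 to 452 genes, with Shmt1 from −0.18 to 0.00996, Mthfd2 from −0.12 to 0.11 and Aldh1l2 from −0.49 to 0.037, each at its highest without 40% tumor 2.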
